A study of Mus musculus with 31 samples.

Results

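The eyes of hemizygous *Ftx*-/Y males were compared with those of WT males at embryonic day 13.5, 3 eyes in each group, so that the loss of the gene could be read in cells that carry a single, active X chromosome. These 6 eyes were taken from the labelled sex and genotype, out of 20 eyes on 31 arrays in the whole series, and each was hybridised to 1 array. The other 14 eyes, 11 from *Ftx*-/- females and 3 from WT females, served to estimate the spread of each probe and to set the change in males beside that in females. *Ftx*-/Y embryos carry the targeted *Ftx* allele, made in C57BL/6N embryonic stem cells, on their only X chromosome and were kept on a pure C57BL/6N background; the allele also lacks expression of miRNA374 and miRNA421, which the gene hosts. WT embryos carry no *Ftx* mutation. The pigmented epithelial layer was removed by dissection before RNA was taken, in every group. The labels number the eyes and do not say whether each came from a different embryo. The p-values below therefore measure the spread between eyes only, pooled in the main fit over all 20 eyes. The 3 eyes a group limit their precision.

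*Ftx* is a long non-coding RNA gene of the X-inactivation centre, the region that holds *Xist*, whose RNA coats and silences one X chromosome in each cell of a female. Male somatic cells keep their X chromosome active and do not normally accumulate *Xist* RNA, so that effects of *Ftx* loss in male eyes are read apart from failed silencing. The eye at this stage is made of a proliferating neural retina, a lens filling with crystallins, surface ectoderm, mesenchyme and vessels filled with embryonic red cells.

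*Ftx* and the sex-linked genes were read in each eye first. The probe for *Ftx*, listed under its older name B230206F22Rik and placed at chrX:100802990-100803049 (mm9, minus strand), reads as follows, shown because it checks the genotype.
Ftx: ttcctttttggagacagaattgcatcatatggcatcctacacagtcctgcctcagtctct
Its normalized intensity was 110, 107 and 101 in the WT eyes and 18.6, 17.8 and 13.2 in the *Ftx*-/Y eyes. It stood well above background in 3 of 3 WT and 0 of 3 *Ftx*-/Y eyes, and was at least 3.70-fold lower in the latter (limma over all probes, p = 6.37e-05, adjusted p = 0.0560). Where this probe lies relative to the deleted part was not determined, and its level was below the minimum set for the comparison. A second *Ftx* probe was not above background in any of the 6 eyes. The 2 probes that the files name *Xist* lay between 6.87 and 13.9 in the 6 eyes and were not above background in any, and no other probe of that gene was read, whereas the Y-linked Eif2s3y, a translation factor subunit, lay between 1516 and 2065. On the arrays, 49.9 to 55.0% of spots stood well above background, and correlations between eyes were 0.983 to 0.996. The median intensity before normalization was 61.6, 53.7 and 47.0 on the WT arrays and 39.7, 36.9 and 34.8 on the *Ftx*-/Y arrays, without overlap, and its part in the results was not tested. The 3 WT eyes and *Ftx*-/Y eye 1 lay on slide 1, together with the WT female eyes, and *Ftx*-/Y eyes 2 and 3 on slide 2, which was scanned in another session. No *Ftx*-/- female eye lay on slide 1 by its first array, so genotype and slide cannot be told apart in the female comparison. In males, slide and genotype overlapped in part, and values within slide 1, which rest on 1 *Ftx*-/Y eye, are given beside many of the results. With slide or scan session as a block, the male change rested on this same eye. These fits are therefore not separate checks.

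A small share of probes changed in the male eyes. Of 14020 probes with a mean WT male intensity above 500, 507 (3.62%) rose in the *Ftx*-/Y eyes by more than 1.2-fold and 282 (2.01%) fell below 0.8-fold at an unadjusted p under 0.05 in limma; "rose" and "fell" are used below for probes past these limits. Probes that passed an adjusted p of 0.05 numbered 3 (0.0214%). The 3 *Ftx*-/Y eyes lay above all 3 WT eyes for 1564 probes (11.2%) and below them for 1320 (9.42%). Unadjusted p-values under 0.05 were found for 1651 probes (11.8%). The median log2 change over all tested probes was -0.00084, and the median standard error was 0.12. Within slide 1, 266 probes rose and 233 fell, of which 89 and 54 were shared with the comparison of all 6 eyes. Leaving out 1 eye at a time gave 244 to 983 rises and 113 to 632 falls, lowest without WT eye 2 and highest without WT eye 3. Risen probes made up 64.3% of the calls, 76.2% when arrays were scaled to their 75th percentile and 10% in the deposited signals without normalization between arrays. Counts of higher and lower probes are therefore relative to the normalization, and the members of gene groups are read against each other and against the median of all probes.

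These calls were spread unevenly over probes grouped by the letters they hold. Among tested probes, 127 (0.906%) held a run of GT pairs of at least 10 bases, and 41 of these (32.3%) rose while 0 fell. The median log2 change of the GT-repeat probes was 0.69, against 0.01 for the 12274 probes with no such feature. A run of CA pairs was held by 65 probes (0.464%), of which 0 rose and 22 (33.8%) fell, with a median of -1.09. The 4 risen and 4 fallen repeat probes printed here were among the largest changes of named genes, and their sequences are shown over 30 bases, with capitals marking runs of the repeated pair of at least 10 bases, which may go on past the bases shown. The first 4 rose and the last 4 fell.
A530006G24Rik: tggtttgGTGTGTGTGTGTGTGTacatatg
Ralgps1: aaagcatccTGTGTGTGTGTGcgcgcgGTG
Psme3: acgtgcacaTGTGTGTGTGTGttcGTGTGT
Sgsh: cacaTGTGTGTGTGTGTGTGTGTGTGcGTG
Acot3: gtgtACACACACACatatacacacaagcac
Aff3: tgccctccCACACACACACACActtcattt
Slc35e2: ttgtgtatgaACACACACACatatACACAC
Idua: CACACACACACACACACACAgagtctaaat
Their positions in mm9 were chr2:147542732-147542761, chr2:32992695-32992724, chr11:101184304-101184333, chr11:119204882-119204911, chr12:85400452-85400481, chr1:38392317-38392346, chr4:154995073-154995102 and chr5:109112893-109112922, in that order. Their genes have unlike roles. Ralgps1 encodes an activator of Ral GTPases, Psme3 a proteasome activator, Sgsh and Idua lysosomal enzymes that break down heparan sulphate, Aff3 a nuclear transcription regulator and Acot3 a peroxisomal thioesterase.

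The eyes of the repeat probes ran as follows. For Sgsh, the intensity was 8148, 8561 and 14600 in the WT eyes and 20014, 17367 and 20685 in the *Ftx*-/Y eyes. For Aff3 it was 2327, 2526 and 1731 against 1028, 895 and 593. The groups did not overlap for either gene, and WT eye 3 lay nearest to the *Ftx*-/Y eyes in both. Over all GT-repeat probes, the median deviation from the WT mean was -0.28, -0.24 and 0.52 on the log2 scale in WT eyes 1 to 3 and 0.82, 0.47 and 0.69 in the *Ftx*-/Y eyes. For CA-repeat probes it was -0.05, 0.22 and -0.18 in WT and -0.99, -0.89 and -1.36 in *Ftx*-/Y eyes, and 57 of the 65 had all *Ftx*-/Y eyes below all WT eyes. In the GT group, WT eye 3 lay among the *Ftx*-/Y eyes. The genes with a risen GT-repeat probe had 12 other tested probes without a repeat, from 11 genes, and 0 of these rose, their log2 changes lying between -0.23 and 0.13. The second Sgsh probe, for example, changed by -0.17. The female comparison showed medians of 1.05 and -1.25 for the GT and CA probes. What moves these probes was not tested, and in the lists below each repeat probe is named as one.

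A weaker shift was seen for probes with a run of 4 or more C bases and no repeat. These made up 1554 probes (11.1%) and 96 of the 282 falls (34%), with 23 rises, although their median change was only -0.06. Leaving out all 3 kinds of probe, 443 of 12274 rose (3.61%) and 164 fell (1.34%).

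**Figure D1:**
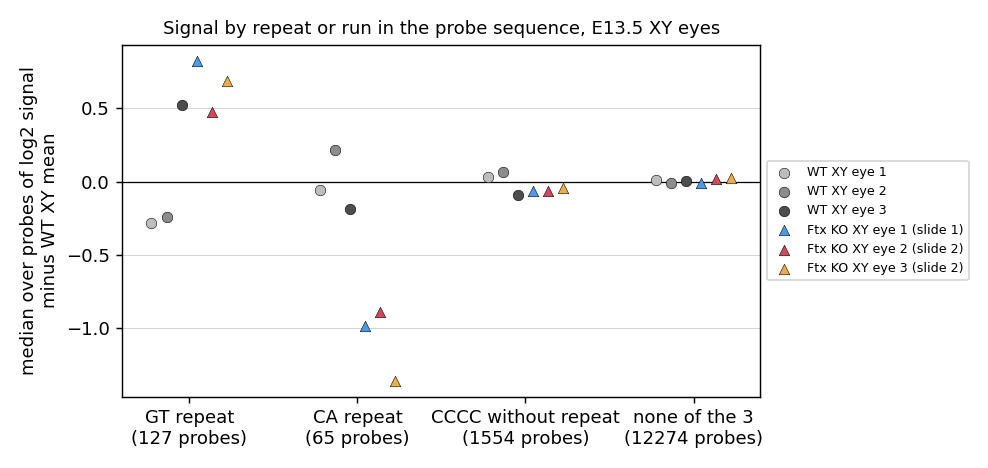
Deviation of each eye from the WT male mean, as the median over probes of the log2 intensity, for probes grouped by the letters they hold (number of probes under each group; circles are WT male eyes, triangles *Ftx*-/Y eyes). In the GT-repeat group the *Ftx*-/Y eyes lie at 0.47 to 0.82 with WT eye 3 at 0.52, in the CA-repeat group at -1.36 to -0.89, and in the 12274 probes without these features all 6 eyes lie near 0.

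The 3 probes that passed the adjusted threshold hold none of these features. Taf15, an RNA-binding protein of the FET family that takes part in transcription, read 2847, 3109 and 2722 in the WT eyes and 1491, 1127 and 1362 in the *Ftx*-/Y eyes. The groups lay far apart, and the level fell to 0.456 of WT (log2 change -1.13, SE 0.18, limma adjusted p = 0.036). Ak4, a mitochondrial adenylate kinase, read 1822, 1661 and 1956 against 2788, 3013 and 3232. All 3 *Ftx*-/Y eyes were above WT, and the probe rose 1.66-fold (log2 change 0.73, SE 0.12, adjusted p = 0.036). Pfkfb3, which makes the allosteric activator of phosphofructokinase and so drives glycolysis, read 1432, 1336 and 1625 against 2313, 2542 and 2507. It rose 1.68-fold without overlap (log2 change 0.75, SE 0.12, adjusted p = 0.036). Within slide 1 the 3 log2 changes were -0.95, 0.62 and 0.66, and 0 of the 3 kept an adjusted p under 0.05, either there (limma adjusted p = 0.602, 0.846 and 0.274) or with slide as a block (0.290, 0.575 and 0.202). The adjusted calls were lost when any of WT eyes 1 and 2 or *Ftx*-/Y eyes 2 and 3 was left out, and 384 probes passed without WT eye 3. The 3 genes stayed past the fold and unadjusted limits in each of those fits.

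The probes lie at chr11:83320160-83320219 (Taf15), chr4:101139464-101139523 (Ak4) and chr2:11393453-11393512 (Pfkfb3) in mm9, and were not annotated further for want of gene models of that build. Chpf2, a chondroitin polymerising factor, came next, with 1819, 1854 and 1566 in WT and 1268, 1269 and 1229 in *Ftx*-/Y eyes (log2 change -0.47, limma adjusted p = 0.0618). Its other probe changed by -0.09, so that the 2 probes of Chpf2 disagree. Of 14 tested genes for FET-family and cold-induced RNA-binding proteins, Taf15 fell and the other 13 did not pass, beside 2.01% of all probes that fell, with a list median of -0.14.

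Genes were then ranked by size among named probes whose eyes did not overlap and that were above background throughout the higher group, 292 risen and 117 fallen. The 12 largest rises fell into 3 kinds: GT-repeat probes of A530006G24Rik, Ralgps1, Psme3 and Sgsh, 6 red cell genes (Alas2, Hbb-y, Hbb-b1, Ahsp, Beta-s and Hba-a1), and Slc16a3 and Bnip3 of the hypoxia lists. The 12 largest falls were CA-repeat probes in all but 2 cases, the other two being Taf15 and Robo1. Robo1, a receptor for the axon guidance ligand Slit, read 1562, 1385 and 1162 in WT and 418, 411 and 804 in *Ftx*-/Y eyes. It fell to 0.380 of WT without overlap (log2 change -1.39, SE 0.33, limma adjusted p = 0.177), and changed by -1.70 within slide 1.

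Genes whose probes hold none of the 3 features were looked at further, a choice made after their values were seen. Txnip, a thioredoxin-binding protein that restrains glucose uptake, rose by 0.63 on the log2 scale, from 1246, 1145 and 1253 to 1657, 1906 and 2113. Unc119b, a lipid-binding chaperone of ciliary proteins, rose by 0.61, and Fads2, a fatty acid desaturase, by 0.51. Vgll4, a cofactor of TEAD transcription factors, rose by 0.54. Among falls, Pf4, a chemokine of platelets and also of embryonic macrophages, changed by -0.73, Ccnl1, a cyclin linked to splicing, by -0.56, Mina, an oxygenase acting on ribosomal protein, by -0.57, and Mau2, a cohesin loader, by -0.52. The *Ftx*-/Y and WT eyes did not overlap for any of these 8 genes, but 0 of them passed the adjusted threshold. With slide as a block, Pf4 (-0.44) and Vgll4 (0.33) did not pass, and within slide 1 neither did Unc119b (0.58) or Fads2 (0.45). The probe of Sly, a multicopy Y-linked gene known from testis, fell by 0.87, from 1067, 1175 and 1234 to 636, 730 and 540, and did not pass with slide as a block or within slide 1. Its many near-identical copies cannot be told apart by 1 probe.

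Several genes of glycolysis and of the hypoxia response rose. In low oxygen, the HIF transcription factors escape degradation and bind short motifs holding ACGTG or GCGTG, raising glucose uptake, glycolytic enzymes, lactate export and regulators of mitochondria. Of 47 genes tested in both lists, 11 rose, 0 fell and 36 passed neither limit, against the background of 3.62% and 2.01% of probes. The eyes did not overlap in the upward direction for 24 genes and in the downward direction for 2, beside 11.2% and 9.42% of all probes. The median log2 change was 0.17, against -0.00084 over all probes, and 0.10 within slide 1. The lists were written with earlier results of these eyes known, and 2 of the 11 passed the adjusted threshold, Ak4 and Pfkfb3.

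The genes that rose covered several steps from glucose to lactate. Hk2, the inducible hexokinase that traps glucose, read 920, 1000 and 941 in WT and 1248, 1438 and 1450 in *Ftx*-/Y eyes, a log2 change of 0.53 (SE 0.15). Pfkl, a subunit of phosphofructokinase, rose by 0.33, and Pgam1, a phosphoglycerate mutase, by 0.40. Pgk1, phosphoglycerate kinase, read 43691, 40007 and 45574 against 52115, 59311 and 60376, a log2 change of 0.41. Its gene is X-linked, but the files place the probe on chromosome 3, where a near-identical copy could share signal. Slc16a3, the lactate exporter of the plasma membrane, was read by 2 probes, the brighter at 8266, 7929 and 7214 against 13071, 13750 and 14802. Both probes rose, by 0.83 (SE 0.17) and 0.95, and all *Ftx*-/Y eyes were above all WT eyes in each. Pdk1, the kinase that keeps pyruvate from mitochondria, rose by 0.55 (SE 0.25), with *Ftx*-/Y values of 938, 1020 and 1134 above 750, 745 and 615.

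Targets outside glycolysis rose as well. Bnip3, which triggers removal of mitochondria, read 9793, 9859 and 8715 in WT and 14652, 19273 and 19868 in *Ftx*-/Y eyes, a 1.88-fold rise by either of its 2 probes (log2 change 0.91, SE 0.28). Kdm3a, a histone demethylase, rose by 0.54 and Fam162a, a mitochondrial protein of hypoxic cells, by 0.48. The eyes of all 11 genes were without overlap. Within slide 1, *Ftx*-/Y eye 1 was above the WT mean in 11 of 11 genes and 9 passed the limits again, the exceptions being Pgam1 (0.16) and Pfkl (0.14). With slide as a block 6 of the list rose, and with scan session as a block 4.

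The other 36 members did not pass by their brightest probe. Ddit4, an inhibitor of mTORC1 signalling, lay above WT in every *Ftx*-/Y eye (19235, 21234 and 21072 against 15214, 12674 and 13866) yet its log2 change of 0.56 had an SE of 0.29 and did not pass. Vegfa, the main angiogenic growth factor, changed by 0.27, the glucose transporter Slc2a1 by 0.09 and Ldha, lactate dehydrogenase, by 0.01 on its brightest probe. The brightest probes of Gapdh, Eno1 and Hk1 changed by -0.12, -0.28 and -0.40 with overlapping eyes. The files place these 3 probes on chromosomes 7, 2 and 5, away from the genes they are named for, so that copies elsewhere could share their signal. Probes of one gene disagreed in places. Ldha had 2 of 3 probes that rose, by up to 0.47, Gapdh 2 of 8, by up to 0.36, Tpi1, triosephosphate isomerase, 1 of 2 at 0.51 and Gys1, muscle glycogen synthase, 1 of 2 at 0.36. Counts are by the brightest tested probe of each gene, a rule that leaves these 4 genes among those that did not pass. The oxygen sensing list (7 tested genes, median -0.03) held 1 rise, Arnt2, a partner of HIF proteins, by 0.39 with overlapping eyes, beside 3.62% of all probes. Arnt2 did not pass with slide as a block or within slide 1. Hif1a mRNA itself changed by -0.03 (SE 0.08).

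**Figure D2:**
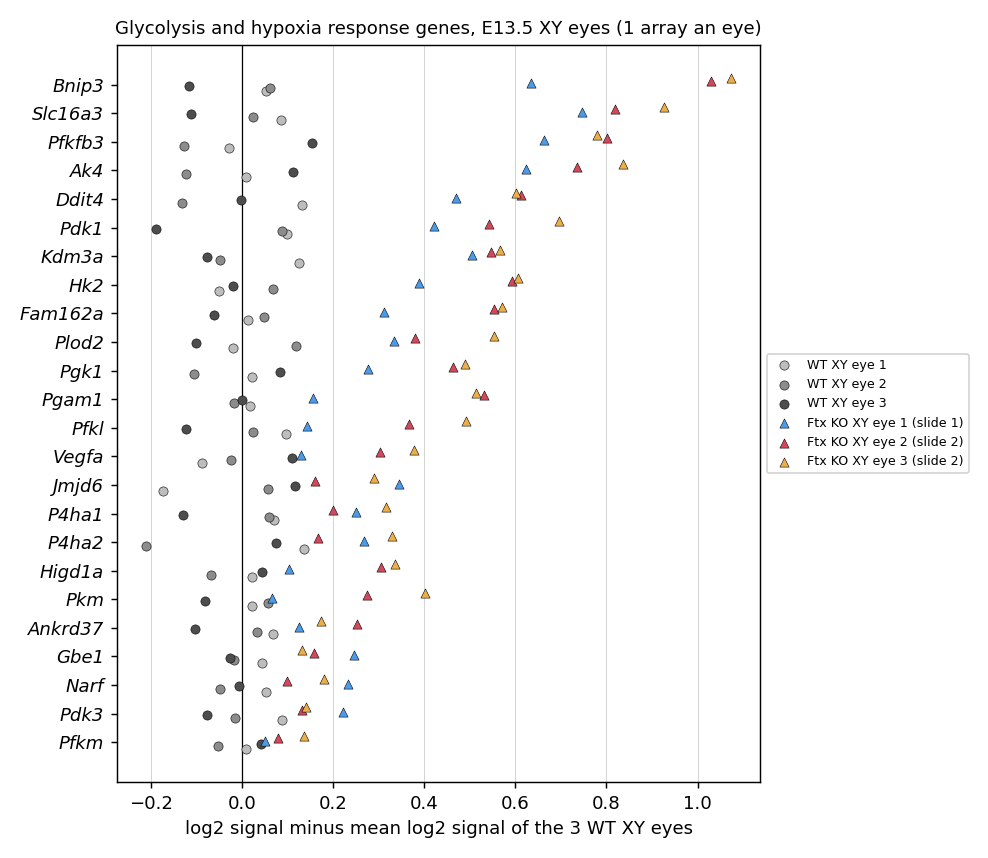
Log2 intensity of each eye minus the mean of the 3 WT male eyes for the 24 glycolysis and hypoxia response genes whose *Ftx*-/Y eyes (triangles) all lay above the WT eyes (circles), ordered by size of change. The genes shown were picked for not overlapping, and Bnip3, Slc16a3, Pfkfb3 and Ak4 show the widest gaps.

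Promoters of the 4 members with the largest changes are printed because the HIF factors have a known motif. Pfkfb3 and Slc16a3 come from the glycolysis list, and Ak4 and Bnip3 from the hypoxia response list. Each sequence gives 250 bases before the start from RefSeq on GRCm38.p6, 5′ to 3′ on the gene's strand, with capitals marking ACGTG or GCGTG on either strand (CACGT and CACGC in reverse).
Ak4: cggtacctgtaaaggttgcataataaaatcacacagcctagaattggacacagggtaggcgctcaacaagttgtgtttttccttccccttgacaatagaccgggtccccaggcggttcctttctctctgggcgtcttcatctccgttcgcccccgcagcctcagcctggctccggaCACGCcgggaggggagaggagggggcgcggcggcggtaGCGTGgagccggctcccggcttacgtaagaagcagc
Pfkfb3: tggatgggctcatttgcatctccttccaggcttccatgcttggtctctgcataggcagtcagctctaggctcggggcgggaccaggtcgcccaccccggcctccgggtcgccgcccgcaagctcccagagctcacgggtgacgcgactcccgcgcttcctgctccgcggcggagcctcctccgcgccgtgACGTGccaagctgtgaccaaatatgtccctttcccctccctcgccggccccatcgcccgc
Slc16a3: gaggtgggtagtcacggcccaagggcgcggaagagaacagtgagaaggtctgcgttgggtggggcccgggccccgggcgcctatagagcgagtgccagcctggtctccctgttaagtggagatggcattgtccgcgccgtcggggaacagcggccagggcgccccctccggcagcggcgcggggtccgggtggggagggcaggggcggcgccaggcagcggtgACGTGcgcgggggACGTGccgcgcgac
Bnip3: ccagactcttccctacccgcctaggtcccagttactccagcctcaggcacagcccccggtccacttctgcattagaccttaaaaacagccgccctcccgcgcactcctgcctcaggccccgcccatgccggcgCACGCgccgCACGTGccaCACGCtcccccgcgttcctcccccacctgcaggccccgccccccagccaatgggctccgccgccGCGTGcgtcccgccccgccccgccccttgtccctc
They lie at chr4:101419039-101419288 (plus), chr2:11553930-11554179 (minus), chr11:120948817-120949066 (plus) and chr7:138909507-138909756 (minus), and hold 2, 1, 2 and 5 matches, counting both of an overlapping pair in Bnip3. All 11 genes that rose held a match in such a window (100%). Of the tested members that did not rise, 20 of 31 with a listed promoter held it (64.5%), and over all genes 10431 of 27025 did (38.6%). The motif is short and common in GC-rich promoters, and a match here is a description of letters only.

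Red cell genes rose most in *Ftx*-/Y eyes 2 and 3. At this stage most circulating red cells come from the yolk sac and contain embryonic globins (Hbb-y, Hbb-bh1, Hba-x) beside the adult forms, with the first cells from the fetal liver. Of 6 haemoglobin genes tested, 5 rose and 0 fell, and the eyes of 4 did not overlap in the upward direction, beside 3.62%, 2.01% and 11.2% of all probes. The median log2 change was 0.87, and 0.26 within slide 1. With slide as a block and within slide 1, 0 of the 5 passed the limits (unadjusted limma p of 0.0763 to 0.825 and 0.057 to 0.676). Without *Ftx*-/Y eye 2 the median was 0.52. Hbb-b1, an adult beta globin, read 52645, 62288 and 72585 in WT and 85222, 172078 and 123706 in *Ftx*-/Y eyes (log2 change 0.98, SE 0.23). Hbb-y, the embryonic beta-like globin, read 85827, 100126 and 119326 against 129802, 259571 and 169459 (0.83, SE 0.23). *Ftx*-/Y eye 1 stood just above the highest WT eye for both, and eye 2 was the highest.

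The same order of *Ftx*-/Y eyes held for the other globin probes but the one named Hba-a2, on which eye 3 was the highest. Hba-x read 5829, 7925 and 5219 against 6665, 20889 and 11545, and Hbb-bh1 1248, 1410 and 1760 against 1578, 4499 and 2884. *Ftx*-/Y eye 1 lay within the WT range for these embryonic forms, while both changed by 0.91 on the log2 scale. Hba-a1 was read by 2 probes. The probe the files name Hba-a2, near-identical in coding sequence, was close to the top of the range at 233633 to 289394 in WT and 305626 to 324095 in *Ftx*-/Y eyes and changed by 0.25, whereas the dimmer one rose by 0.94. Hbb-b2 rose by 0.75 and the Beta-s probe, for a beta globin of nearly the same sequence, by 0.94, so these probes may share signal. Summed over the list, the intensity was 386327 to 496728 in WT eyes and 538706, 797520 and 642879 in *Ftx*-/Y eyes 1 to 3.

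Genes of haem synthesis and of the red cell membrane moved less. Of 28 listed, 16 were bright enough to test, 4 rose and 0 fell, beside 3.62% and 2.01% of all probes, with a median of 0.15. With slide as a block and within slide 1, 0 of the 4 passed. Alas2, the X-linked erythroid enzyme that starts haem synthesis, read 600, 774 and 744 in WT and 855, 2223 and 1548 in *Ftx*-/Y eyes, a 2.04-fold rise (log2 change 1.03, SE 0.31) with 0.28 within slide 1. Ahsp, the chaperone of free alpha globin, read 744, 896 and 1205 against 1220, 2565 and 1856 (0.95, SE 0.25). Hemgn, a nuclear protein of red cell precursors, rose by 0.83 on a GT-repeat probe, a class of which 32.3% rose, and Car2, a carbonic anhydrase not limited to blood, by 0.40 with overlapping eyes. The receptor Tfrc, which takes up iron, changed by 0.12. Of 9 erythroid regulators, Gata1, Klf1, Tal1, Nfe2, Gfi1b and Epor lay under the minimum intensity, and 0 of the remaining 3 passed. In whole eyes, more blood in a sample and more RNA per red cell cannot be told apart.

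**Figure D3:**
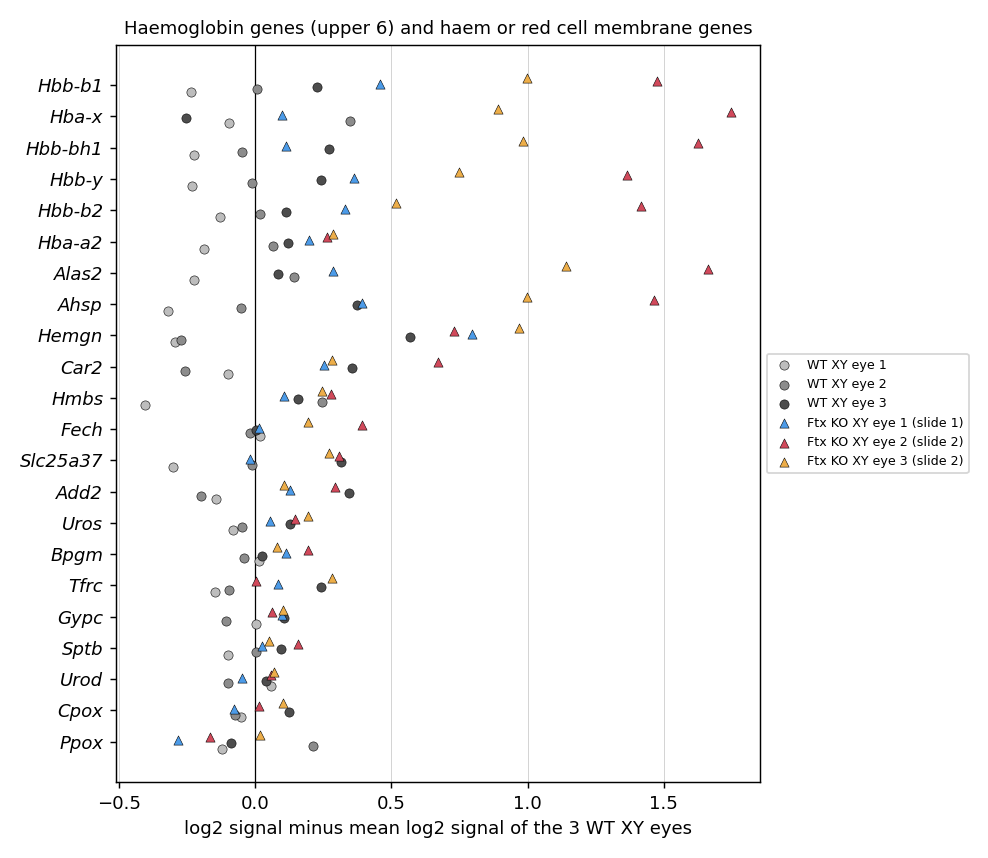
Log2 intensity of each eye minus the mean of the 3 WT male eyes for 6 haemoglobin genes and 16 genes of haem synthesis and the red cell membrane, with circles for WT male and triangles for *Ftx*-/Y eyes. *Ftx*-/Y eye 2 is the highest for Hbb-b1, Hba-x, Hbb-bh1, Hbb-y, Hbb-b2, Alas2 and Ahsp, followed by eye 3, and eye 1 lies nearest to the WT eyes.

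Few lens and retina genes passed the limits. Of 26 lens genes tested, 0 rose and 1 fell, beside 3.62% and 2.01% of all probes, with a median of -0.004. Cryaa, the main alpha crystallin, read 296581, 330808 and 400680 in WT and 361457, 338959 and 354770 in *Ftx*-/Y eyes, which overlap. The fall was that of Cryba4, a beta crystallin, from 173810, 191994 and 189241 to 182157, 102175 and 129089 (-0.46). Its probe holds a CCCC run, *Ftx*-/Y eye 1 lay within the WT range, and its other probe changed by 0.02. Of 17 retinal progenitor genes, 1 rose: Ccnd1, the cyclin that drives division of these cells, by 0.45 with overlapping eyes and 0.19 within slide 1. Of 27 retinal neuron genes, Nefm, a neurofilament of young ganglion cells, rose by 0.37 and Snap25 fell by 1.24 on a CA-repeat probe. The list medians were 0.07 and 0.03.

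Markers of pigment cells, endothelium and macrophages had lower values in the *Ftx*-/Y eyes, and 1 of them, Pf4, passed the limits. Of 7 pigment cell genes tested, 0 passed, all 7 had negative changes, and the eyes of 3 did not overlap in the downward direction, as for 9.42% of all probes, with a median of -0.73. Dct, a melanin pathway enzyme, read 5136, 4416 and 3576 in WT and 2262, 2975 and 2058 in *Ftx*-/Y eyes, and Pmel, the fibril protein of melanosomes, 4105, 2886 and 2296 against 1219, 1914 and 1025. With log2 changes of -0.85 (SE 0.67) and -1.17 (SE 0.73), neither was beyond the spread that limma estimated over all 20 eyes. The summed intensity of the list was 10512 to 15211 in WT and 6857 to 9964 in *Ftx*-/Y eyes. The pigmented layer was dissected away, and the part of remaining pigment cells in any other result was not tested. Changes were also negative for 9 of 9 endothelial genes (median -0.34, 0 passing) and 8 of 8 macrophage genes (median -0.27). Pf4 was the 1 fall in the latter list, beside 2.01% of all probes, from 2006, 2538 and 2133 to 1636, 1699 and 848, a call lost with slide as a block. Within slide 1 the medians of the pigment, endothelial and macrophage lists were -0.92, -0.15 and -0.24.

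Endothelial genes thus did not rise with the red cell genes. The summed endothelial intensity was 19650 to 24959 in WT and 18280 to 21683 in *Ftx*-/Y eyes, and the summed macrophage intensity 8928 to 10749 against 6421 to 8630. The mesenchyme list (9 tested) held 0 calls, with a median of -0.11, and the surface ectoderm list (2 tested) 0 calls and a median of -0.19. None of 18 muscle genes reached the minimum intensity.

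**Figure D4:**
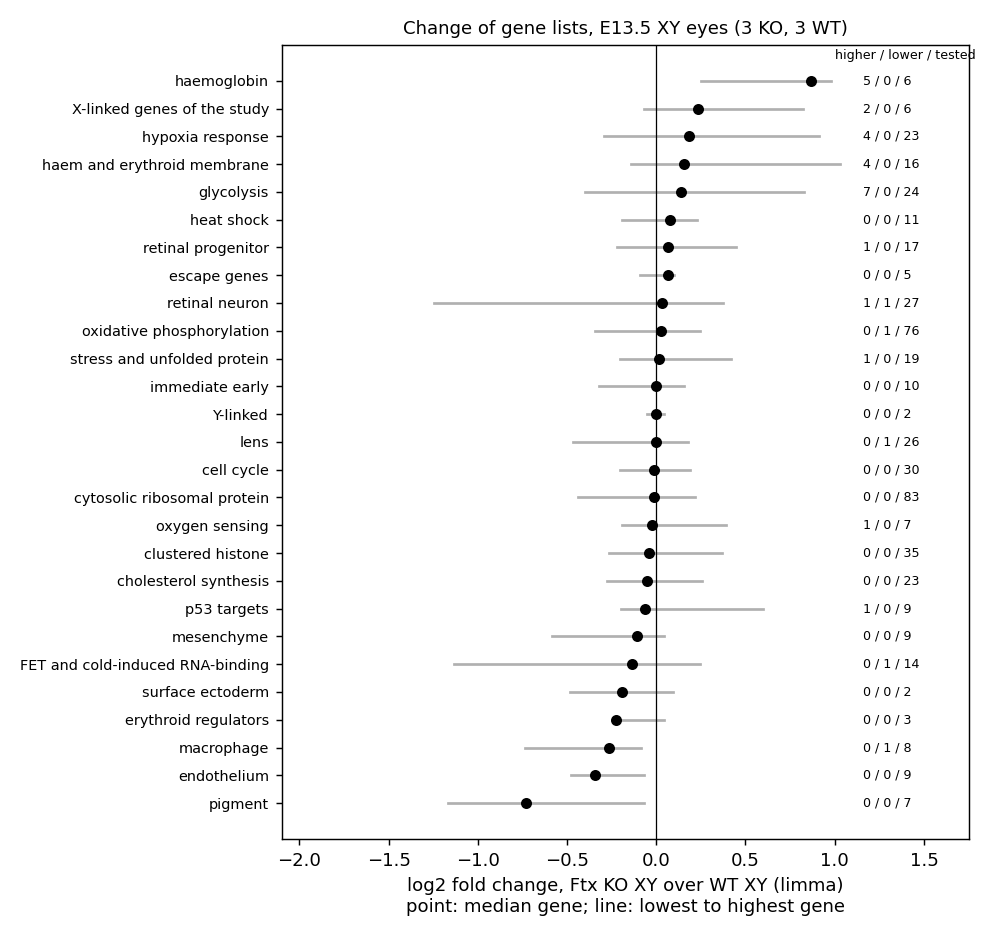
Log2 change of each gene list for *Ftx*-/Y against WT male eyes, the point marking the median gene and the line running from the lowest to the highest gene, with counts of genes higher, lower and tested at the right. The haemoglobin list (median 0.87) and the pigment list (median -0.73) lie farthest from 0, while lens (-0.004), cell cycle (-0.01) and cytosolic ribosomal protein (-0.01) centre on it.

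X-linked genes were examined as the class in which *Ftx* is known to act. Of 539 X-linked probes, 27 rose (5.01%) and 6 fell (1.11%), against 473 (3.54%) and 269 (2.01%) of 13352 autosomal probes, and the medians were 0.02 and -0.0016. The difference between these shares was not tested. The rises with a gene name, leaving out predicted genes known by a number alone, came from 15 probes of 14 genes. Beside Alas2, they included Gripap1, an endosomal adaptor of neurons (0.46), Haus7, a subunit of the spindle complex augmin (0.40 and 0.35 on 2 probes), Amot, an angiomotin of the Hippo pathway (0.37) and Piga, of GPI anchor synthesis (0.34). The 6 falls were Taf7l (-0.75), Dnase1l1 (-0.68), Renbp (-0.49), Pdzd11 (-0.44), Ppp1r14b (-0.41) and Acot9 (-0.37). Ppp1r14b is an autosomal gene whose probe the files place on the X chromosome, where a copy could share its signal. For Dnase1l1, WT eye 3 at 1016 stood apart from WT eyes at 323 and 317 and from *Ftx*-/Y eyes at 275, 307 and 300. With slide as a block, 8 of the 27 rises and 1 of the 6 falls passed again, and within slide 1, 4 and 1. Among the genes named here, the block kept Haus7 and Renbp, and within slide 1 Renbp alone passed. None of the X-linked calls lay within 1 Mb of *Ftx*, where 7 probes were tested with changes of -0.61 to 0.20.

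Single X-linked genes that the study had followed in females were also read. Pgk1 rose as given above. Ogt, which adds O-GlcNAc to proteins, changed by -0.07, Tmem29 by 0.07 and Gab3, a signalling adaptor, by 0.82 with an SE of 0.66. Gab3 read 4025, 2998 and 12480 in WT eyes, a spread wider than the difference. The list of 6 had a median of 0.24. The 5 tested genes that commonly escape X inactivation had a median of 0.06 and the 2 Y-linked genes of -0.004, with 0 calls in either.

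Lists for stress, growth and basic metabolism showed few calls, against 3.62% of all probes that rose and 2.01% that fell. The immediate early (10 tested, median -0.003), heat shock (11, 0.08), cholesterol synthesis (23, -0.05), cell cycle (30, -0.01), cytosolic ribosomal protein (83, -0.01) and clustered histone (35, -0.04) lists held 0 rises and 0 falls. Of 19 genes of the integrated stress and unfolded protein response, 1 rose: Dnajb9, a chaperone of the endoplasmic reticulum, from 678, 754 and 693 to 843, 976 and 1026 (0.42, SE 0.10), and 0.25 within slide 1, where it did not pass. The list median was 0.01. Of 9 p53 targets (median -0.07), Mdm2, which degrades p53, passed at 0.60, a value that rests on WT eye 2 at 3297, whereas the other WT eyes read 8814 and 9589 and the *Ftx*-/Y eyes 9317 to 10342. Of 76 genes of oxidative phosphorylation (median 0.03), 1 fell, the complex I subunit Ndufa7, by 0.34 with overlapping eyes.

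The changes in male eyes were last set beside those in *Ftx*-/- female eyes, which were compared with WT female eyes in the same fit. The 49 probes considered were chosen on the male change, which enters the difference between the sexes and favours a larger value in males. Their direction was the same in both sexes for 40 probes. All WT eyes lay on the same slide and no *Ftx*-/- female eye did, so a shared direction cannot be told apart from a slide difference. The difference between the 2 changes had an unadjusted p under 0.05 for 12 of the 49, and an adjusted p under 0.05 for 0, as it had for 0 of all 14020 probes (0%, with 1928 or 13.8% at an unadjusted p under 0.05 in limma). The 3 genes past the adjusted threshold in males had the same direction in females: Ak4 changed by 0.73 in males and 0.81 in females, Pfkfb3 by 0.75 and 0.52, and Taf15 by -1.13 and -0.66.

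Other members moved in the male eyes with little change in females. The brighter Slc16a3 probe changed by 0.83 in males and -0.02 in females (difference -0.85, limma p = 0.00119), Bnip3 by 0.91 and -0.05 (difference -0.96, p = 0.0135) and Robo1 by -1.39 and -0.11 (difference 1.29, p = 0.00707). Among blood genes the female changes ran from -0.84 for Beta-s and -0.54 for Hbb-b2 to 0.02 for Hbb-b1 and 1.28 for Hbb-bh1. Pf4 was lower in males (-0.73) and not in females (0.43, difference 1.17, p = 0.00885), although its fall in males did not pass with slide as a block. Chpf2 changed by -0.47 in both. None of these differences passed an adjusted p of 0.05, and the pigment list, whose median was 0.81 in females, had no tested difference.

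**Figure D5:**
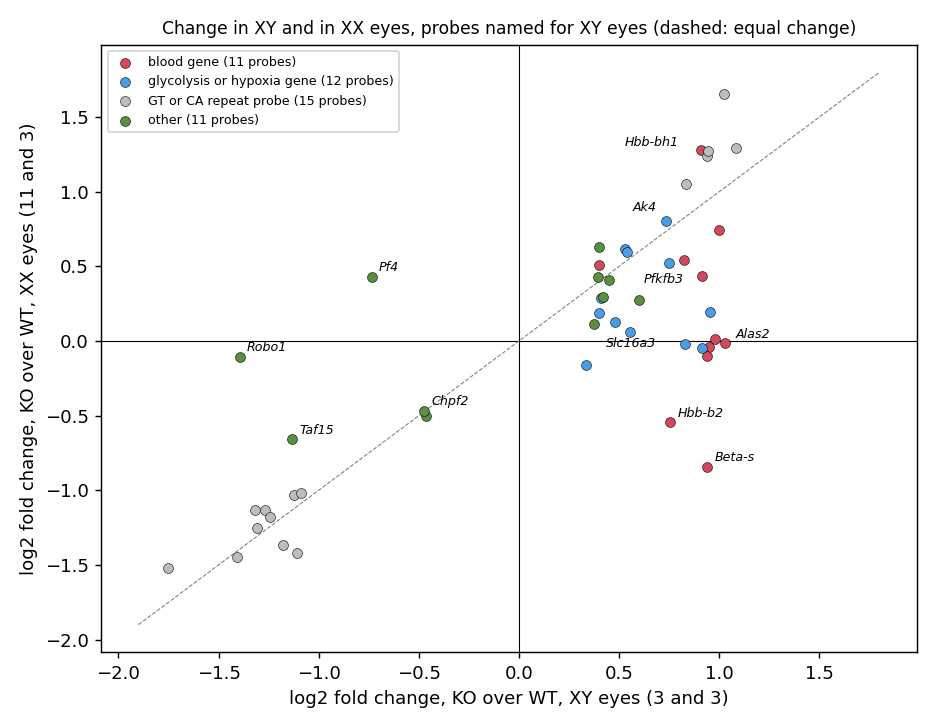
Log2 change in females (*Ftx*-/- minus WT) against the change in males (*Ftx*-/Y minus WT) for the named probes, 1 point a probe. Ak4 (0.73 in males, 0.81 in females) lies near the line of equal change, whereas Beta-s (0.94 and -0.84) and Robo1 (-1.39 and -0.11) lie far from it.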

How the data were processed

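Gene expression was measured in 6 male eyes at embryonic day 13.5 on 1-colour Agilent whole mouse genome arrays with 59305 spots beside 3671 control spots. Fluorescence intensity, already background-subtracted by Feature Extraction 11.0.1.1 (mm9 positions, per the file headers), was deposited by the authors for each array, and a series table of the same signals, rounded to within 0.498%, was used as an alternative. The authors' analysis limits of fold and p were kept, with limma in place of the unequal variance test.

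Control spots and flagged spots were left out (48 not uniform and 1166 apart from their copies on the 6 arrays), spots of a probe were averaged, and arrays were normalized by quantile splines (5 iterations, 100 quantiles). Probes with a mean WT male intensity above 500 were kept, 14020 of 55681, of which 21 lacked a value in 1 of the 6 eyes and were fitted without it. On the log2 scale of the deposited intensities, 4 groups were fitted to 20 eyes with limma 3.58.1 in R 4.3.3 (trended variance, 2 arrays of a female eye averaged), with Benjamini-Hochberg adjustment over all probes. Scripts were tested on simulated data. Accessions were matched to RefSeq symbols, 10827 of 11118 found. Within slide 1, and with slide or scan session as a block, the male change rests on 1 *Ftx*-/Y eye, assumed to vary like the others.

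Named genes were those with an adjusted p under 0.05, the 12 largest rises and falls without overlap, and members of lists. A gene is read by its brightest tested probe. Members and lists were chosen with earlier results of these data known. Alternatives were the 75th percentile, quantile and normexp normalizations, other filters, the 6 eyes alone, slide, scan or replicate as a block, a GC trend, the methods' t-test, and leaving out each eye. Leaving out repeat and CCCC probes was added after seeing the data. Some listed genes and probe sequences are not reported here.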

Additional observations from a re-analysis of the deposited data

Results flagged for a closer look

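The probe of Beta-s, a beta globin, stood out because its knockout eyes all lay above WT in males and all below WT in females. It rose by 0.94 on the log2 scale in *Ftx*-/Y against WT male eyes and changed by -0.84 in *Ftx*-/- against WT female eyes, where the mean intensity was 2779 and 4845. The change in males was 0.39 with slide as a block and within slide 1 and did not pass in either. The difference was -1.78 (limma, p = 0.00031, adjusted p = 0.154), the largest in size among the 49 probes considered, and it did not pass the adjusted threshold. The groups of 3 eyes were too small to be searched for single eyes far from the others.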

How the results depend on the processing

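The 507 rises, 282 falls, 3 adjusted calls and 11 glycolysis and hypoxia genes were recomputed under each alternative, and no named probe changed direction. The haemoglobin median of 0.87 and 0 adjusted differences between the sexes were also recomputed, except for the 6 eyes alone and the methods' t-test. The differences were not recomputed within slide 1 or with a replicate block either. Slide block, scan block and slide 1 are not separate checks, since the male change rests on *Ftx*-/Y eye 1 in each. With slide as a block, 145 probes fell, 9 passed the adjusted threshold without Taf15, Ak4 or Pfkfb3 among them, 6 hypoxia genes rose and the haemoglobin median was 0.26. With scan session as a block the values were 144 rises, 106 falls, 6 adjusted calls, 4 hypoxia genes and 0.26, and within slide 1, 266 rises and 0.26. Of the 49 named probes, 11, 8 and 27 stayed past the limits in these 3 fits. The unnormalized series table gave 33 rises, 0 adjusted calls and 4 hypoxia genes, and no filter on dim probes gave 3657 rises, 2625 falls, 55 adjusted calls and 5 adjusted differences between the sexes over 55681 probes. The 6 eyes alone gave 484 falls and 0 adjusted calls, and the methods' t-test 261 rises, 156 falls and 0 adjusted calls. Without repeat and CCCC probes, 166 of 12274 probes fell.

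Leaving out each eye in turn gave 244 to 983 rises, 113 to 632 falls, 0 to 384 adjusted calls, 9 to 14 hypoxia genes and haemoglobin medians of 0.52 to 1.15. The lowest counts of rises and falls came without WT eye 2 and the highest without WT eye 3. With a replicate block, 593 probes fell and 48 passed the adjusted threshold. Deviations of same-numbered eyes correlated at -0.15, -0.04 and -0.06, so no pairing by number was seen, although 3 such values cannot exclude one. Where a value moved, the cause was not tested. Quantile, normexp and 75th percentile normalization, another filter and a GC trend kept these 6 results within 1.5 times.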
